A study of Mus musculus with 71 samples.

Results

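The nicotinic acetylcholine receptors are cation channels that open when acetylcholine or nicotine binds. 8 genes that encode subunits of the neuronal receptors were followed here: Chrna3, Chrna4, Chrna5, Chrna6 and Chrna7, which encode alpha subunits, and Chrnb2, Chrnb3 and Chrnb4, which encode beta subunits. They were taken by their gene symbols from tables of 37681 genes, and all 8 were found in each table. RNA was sequenced from tissue micro-punches taken from the nucleus accumbens (NAc), ventral tegmental area (VTA) and prefrontal cortex (PFC) of adult wild type C57BL/6 mice. The animals of every group had gone through a self-administration procedure, with cocaine or with saline, followed by abstinence for 1 day or 28 days, so the saline mice serve as the control at each time. The 71 libraries formed 12 groups of 6, except for saline VTA at 28 days with 5. The labels do not say which libraries came from separate animals, so the p-values measure the spread between these libraries. Neither the strand nor the program used for counting is given in the sources used here.

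Receptors are assembled from several subunits around a pore. Chrna4 and Chrnb2 make up the common high-affinity receptor of the brain, and Chrna5 is an accessory subunit that can join it. Chrna6 and Chrnb3 are best known from midbrain dopamine neurons, the cells of the VTA that project to the NAc and are central to the action of addictive drugs. Chrna3 and Chrnb4 form the receptor of autonomic ganglia and are abundant in the medial habenula and the interpeduncular nucleus, which lies next to the VTA. Chrna7 can form a receptor by itself.

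Several subunit genes lie side by side. In the mm9 genome build used for the deposited tables, Chrna5 (chr9:54828687-54855586, plus strand), Chrna3 (chr9:54859150-54874366, minus strand) and Chrnb4 (chr9:54875963-54896351, minus strand) formed a cluster with gaps of 3563 and 1596 bases. Chrnb3 (chr8:28479183-28510201, plus strand) and Chrna6 (chr8:28513686-28524416, minus strand) formed a second cluster with a gap of 3484 bases. Chrna4 (chr2:180753085-180778251), Chrnb2 (chr3:89557370-89568554) and Chrna7 (chr7:70243578-70357455), all on the minus strand, stood apart from the other members. In the GENCODE annotation of mm9 no other gene overlapped any of the 8. With 302 bases added at each end, the margin of the deposited 28-day NAc coordinates, Chrnb2 overlapped Adar.

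The bases just upstream of 4 of these genes are shown because the data below separate them: the neighbours Chrna5, Chrna3 and Chrnb4 differed in level between regions and in how they varied between VTA libraries, and Chrna4 had the smallest p-value of cocaine against saline. Each window holds the 250 bases before an annotated start, from RefSeq with the build GRCm38.p6, read 5′ to 3′ along the gene's strand. Capitals mark the GC box, the letters GGGCGG or, on the other strand, CCGCCC, the core motif of Sp1-type factors. Such a box stood in 32.7% of 32851 promoter windows of this length. The set of RefSeq promoters used here had an entry for 6 of the 8 members, with 7 windows, and not for Chrna6 and Chrnb3.
Chrna4, chr2:181039178-181039427, minus strand: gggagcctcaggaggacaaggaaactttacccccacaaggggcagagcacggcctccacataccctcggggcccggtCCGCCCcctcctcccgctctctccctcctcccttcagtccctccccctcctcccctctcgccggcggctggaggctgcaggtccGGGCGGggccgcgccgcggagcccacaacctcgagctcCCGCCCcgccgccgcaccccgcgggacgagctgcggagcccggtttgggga
Chrna5, upstream start, chr9:54980630-54980879, plus strand: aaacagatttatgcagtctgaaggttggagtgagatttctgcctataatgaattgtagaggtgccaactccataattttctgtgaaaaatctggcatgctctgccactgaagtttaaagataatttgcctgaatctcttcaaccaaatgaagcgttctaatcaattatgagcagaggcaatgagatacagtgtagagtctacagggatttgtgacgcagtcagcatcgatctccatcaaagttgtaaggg
Chrna5, downstream start, chr9:54981238-54981487, plus strand: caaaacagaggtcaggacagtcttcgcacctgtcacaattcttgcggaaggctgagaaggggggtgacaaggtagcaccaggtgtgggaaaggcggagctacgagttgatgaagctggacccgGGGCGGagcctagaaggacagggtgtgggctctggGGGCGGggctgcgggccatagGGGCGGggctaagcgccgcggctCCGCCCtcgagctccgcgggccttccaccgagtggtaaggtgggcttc
Chrna3, chr9:55026563-55026812, minus strand: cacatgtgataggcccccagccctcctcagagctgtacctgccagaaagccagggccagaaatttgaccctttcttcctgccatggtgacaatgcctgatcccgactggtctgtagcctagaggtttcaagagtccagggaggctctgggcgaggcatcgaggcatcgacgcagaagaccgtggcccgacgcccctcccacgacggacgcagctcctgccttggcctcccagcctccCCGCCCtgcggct
Chrnb4, chr9:55048545-55048794, minus strand: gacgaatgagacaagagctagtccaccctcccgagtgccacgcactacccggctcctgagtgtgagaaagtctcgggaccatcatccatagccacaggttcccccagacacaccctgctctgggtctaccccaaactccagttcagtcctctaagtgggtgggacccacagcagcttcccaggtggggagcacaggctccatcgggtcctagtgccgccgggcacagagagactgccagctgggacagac

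The Chrna4 window held 3 GC boxes and 24 CpG dinucleotides, against a median of 6 CpG over all windows. The downstream start of Chrna5 had 4 boxes and 17 CpG, whereas its upstream start had 0 boxes and 3 CpG. Chrna3 had 1 box with 13 CpG, and Chrnb4 had 0 boxes with 8 CpG. Of the windows not printed, that of Chrna7 held 1 box and 25 CpG and that of Chrnb2 held 0 boxes and 10 CpG. A match describes the letters in the window and is not evidence that a factor binds there.

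Levels are given as RPKM, read numbers that take the length of the gene and the depth of the library into account, which allows genes to be set side by side. Library totals ranged from 20971967 to 49700932 reads. The regions carried their defining markers. The summed RPKM of 10 dopamine neuron genes, among them Th and the dopamine transporter Slc6a3, was 668 to 2665 in VTA libraries and at most 50.8 in the NAc and 26.7 in the PFC. The summed RPKM of 10 genes of striatal projection neurons was at least 1768 in the NAc and at most 241 in the VTA. In the PFC it was at most 151 in every library except saline library 4 at 28 days, where it reached 1422 and the dopamine receptor gene Drd2 stood at 45.9 RPKM against at most 2.93 in the other PFC libraries. The regional contrasts, the summed level and the 28-day PFC fold changes are also given without that library.

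VTA tissue carried the most subunit RNA. In saline mice at 28 days the 8 genes summed to 155 ± 67.8 RPKM (SD, n = 5) in the VTA, 35.6 ± 4.22 (SD, n = 6) in the PFC and 23.5 ± 1.27 (SD, n = 6) in the NAc. All 8 subunits were called higher in the VTA than in the NAc, a comparison in which 62.5% of all genes tested were called and 32.6% were called higher. Against the PFC, 7 of 8 were called higher in the VTA, with 57.8% of all genes called and 29.8% higher. Between PFC and NAc, 5 of 8 were called, 3 higher and 2 lower in the PFC, beside a background of 40.7% called, 20.7% higher and 20.0% lower. These contrasts come from 1 edgeR quasi-likelihood fit of the raw counts of the 17 saline libraries at 28 days, with Benjamini-Hochberg adjustment over 17181 genes and a threshold of 0.05. By the methods, the 3 regions were punched from the brains that were collected, so libraries of different regions may share animals. The fit treats the 17 libraries as independent, since the 28-day columns do not tie libraries to animals. Without PFC saline library 4 the PFC sum was 36.7 ± 3.67 RPKM (SD, n = 5), and each of the 8 members kept its direction and its call in both contrasts of the PFC. Without it the log2 difference between VTA and PFC was 1.41 for Chrna4, 0.50 for Chrnb2, 0.34 for Chrna7, 8.26 for Chrna6 and 4.97 for Chrnb3. That between PFC and NAc was 1.60 for Chrna4, 0.05 for Chrnb2, 0.33 for Chrna7, 0.68 for Chrna6 and 3.52 for Chrnb3. In tissue punches, fewer cells of a type and less RNA per cell cannot be told apart.

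**Figure D1:**
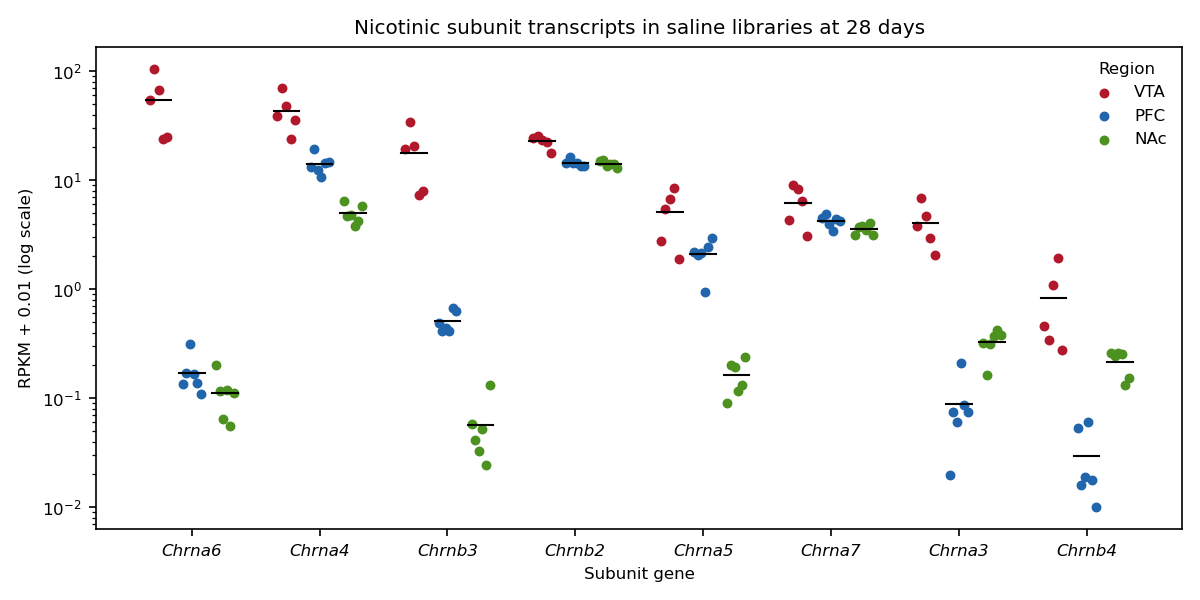
RPKM plus 0.01 on a log axis for each subunit gene, with 1 point per saline library at 28 days and a line at the group mean, by region. Chrna6 sat between 23.8 and 105 RPKM in the VTA and at or below 0.302 in the other regions, whereas the Chrnb2 means lay between 14.2 and 22.8.

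The dopamine neuron subunits Chrna6 and Chrnb3 had the widest range between regions. Chrna6 had 54.0, 105, 67.3, 23.8 and 25.2 RPKM in the saline VTA libraries at 28 days. In the NAc its lowest, median and highest values were 0.0456, 0.104 and 0.193 RPKM, and in the PFC 0.0984, 0.142 and 0.302 RPKM. No VTA library came near the range of the other regions. The log2 difference was 8.97 ± 0.46 (SE, adjusted p = 2.58e-11 by edgeR) between VTA and NAc and 8.27 ± 0.44 (adjusted p = 3.71e-11 by edgeR) between VTA and PFC. Between PFC and NAc it was 0.70 ± 0.60 and was not called (adjusted p = 0.384 by edgeR).

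Chrnb3 had the same order at the top but separated the other regions too. Its saline VTA libraries at 28 days held 19.1, 34.6, 20.4, 7.34 and 8.01 RPKM. The PFC held 0.400, 0.456 and 0.656 RPKM (lowest, median, highest) and the NAc 0.0144, 0.0366 and 0.123 RPKM. The 3 ranges did not overlap. The PFC level was higher than that of the NAc by 3.48 ± 0.51 on the log2 scale (adjusted p = 2.77e-05 by edgeR), and the VTA level was higher than that of the PFC by 5.03 ± 0.38 (adjusted p = 4.12e-09 by edgeR).

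Chrna4 and Chrnb2, partners in the high-affinity receptor, did not share a pattern. Chrna4 was graded, at 43.4 ± 17.6 RPKM in the VTA (SD, n = 5), 14.1 ± 2.90 in the PFC and 4.97 ± 1.01 in the NAc (both SD, n = 6). Each step was called, with log2 differences of 1.48 ± 0.22 between VTA and PFC and 1.55 ± 0.21 between PFC and NAc. Chrnb2 was close to even, at 22.8 ± 3.12, 14.4 ± 0.955 and 14.2 ± 0.935 RPKM in the same order of regions. Its VTA level was higher by 0.58 ± 0.08 than in the NAc and by 0.51 ± 0.08 than in the PFC (both called), and the PFC and NAc differed by 0.07 ± 0.08 (adjusted p = 0.526 by edgeR). That last difference had the opposite sign in cocaine libraries at 28 days (-0.09) and in saline libraries at 1 day (-0.14), where it was called (adjusted p = 0.0345).

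The accessory subunit Chrna5 was a gene of the VTA and PFC. Its levels were 5.07 ± 2.78 RPKM in the VTA (SD, n = 5), 2.11 ± 0.665 in the PFC and 0.152 ± 0.0579 in the NAc (both SD, n = 6). The PFC exceeded the NAc by 3.82 ± 0.40 on the log2 scale (adjusted p = 8.29e-07 by edgeR). The VTA exceeded the PFC by 1.12 ± 0.33 (adjusted p = 0.00763), and by 0.96 without PFC saline library 4 (adjusted p = 0.0148). In that library Chrna5 was at 0.936 RPKM, the lowest of the 6.

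Chrna3 and Chrnb4, its neighbours on chromosome 9, had their lowest levels in the PFC. Chrna3 stood at 4.07 ± 1.85 RPKM in the VTA (SD, n = 5), 0.319 ± 0.0914 in the NAc and 0.0779 ± 0.0648 in the PFC (both SD, n = 6). Chrnb4 stood at 0.812 ± 0.701, 0.207 ± 0.0578 and 0.0194 ± 0.0216 RPKM in the same order. Both were called lower in the PFC than in the NAc, by log2 differences of -1.94 ± 0.44 for Chrna3 and -3.34 ± 0.65 for Chrnb4. Without PFC saline library 4, which had the highest Chrna3 (0.201 RPKM, 25 reads) and Chrnb4 (0.0505 RPKM, 7 reads) of its group, the differences were -2.50 and -3.95. The PFC values rest on few reads. Chrnb4 had 15 reads over the 6 saline PFC libraries at 28 days and 0 reads in 1 of them, where 3 reads would amount to 0.0246 RPKM, a limit that covers counting error only. Chrna5 and Chrnb4, at the outer ends of this cluster, were thus shifted in opposite directions between PFC and NAc.

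Chrna7 varied least between regions after Chrnb2. It was at 6.21 ± 2.50 RPKM in the VTA (SD, n = 5), 4.25 ± 0.523 in the PFC and 3.55 ± 0.388 in the NAc (both SD, n = 6). The VTA exceeded the NAc by 0.70 ± 0.21 on the log2 scale (adjusted p = 0.00692 by edgeR). The difference of 0.40 ± 0.21 from the PFC was not called (adjusted p = 0.103), but it was called in cocaine libraries at 28 days (0.79), in saline libraries at 1 day (0.54), and without VTA saline library 1 (0.51) or 5 (0.58).

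The makeup of the subunit RNA is given here as a description. In the VTA, Chrna6 made up 33.2%, Chrna4 28.6%, Chrnb2 16.3% and Chrnb3 10.8% of the summed RPKM. In the PFC, Chrnb2 (40.8%) and Chrna4 (39.2%) were nearly equal, followed by Chrna7 (11.9%) and Chrna5 (5.89%). Without PFC saline library 4 these shares were 39.5%, 40.0%, 12.1% and 6.45%. In the NAc, Chrnb2 alone made up 60.2%, ahead of Chrna4 (21.1%) and Chrna7 (15.2%). By level, neighbours in the VTA order of Chrna6, Chrna4, Chrnb2, Chrnb3, Chrna7, Chrna5, Chrna3 and Chrnb4 had overlapping ranges, except the last pair. In the NAc, Chrnb2 lay above the range of Chrna4, Chrna4 and Chrna7 overlapped, and the ranges of all other members lay below that of Chrna7 and overlapped their neighbours. In the PFC the ranges of Chrnb2 and Chrna4 overlapped, Chrna7, Chrna5 and Chrnb3 each lay apart, and Chrna6, Chrna3 and Chrnb4 overlapped in a chain at the bottom. The overlap of Chrna6 and Chrna3 rested on PFC saline library 4, with Chrna3 at 0.201 RPKM. The next highest Chrna3 was 0.0767 RPKM, below the lowest Chrna6 of 0.0984 RPKM.

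**Figure D2:**
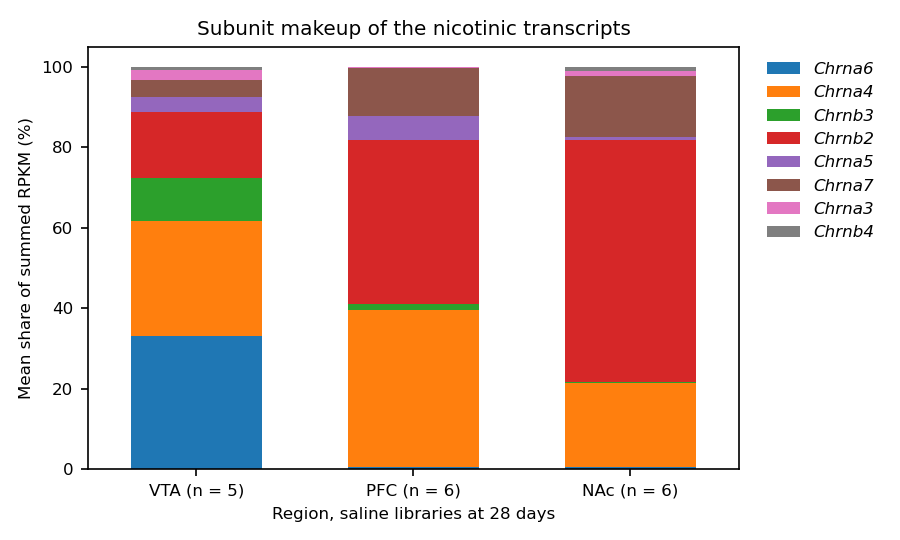
Stacked bars of the mean share, in percent, that each subunit gene took of the summed RPKM of the 8 genes in saline libraries at 28 days, with 1 bar per region. Chrna6 took 33.2% in the VTA and 0.427% in the NAc, where Chrnb2 took 60.2%.

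Other genes of the receptor system were counted from lists. Of 8 further nicotinic subunits (Chrna1, Chrna2, Chrna9, Chrna10, Chrnb1, Chrnd, Chrne and Chrng, mostly of muscle and sensory receptors), 3 had enough reads to be tested between regions. All 3 were called higher in the VTA than in the NAc, and 2 of them were called higher than in the PFC, Chrna2 by 4.35 and Chrnb1 by 1.82 on the log2 scale. The Chrna2 difference came from 2 of the 5 VTA libraries, at 7.52 and 11.6 RPKM. The other 3, at 0.0793, 0.0798 and 0.0935 RPKM, lay below all 6 saline PFC libraries (0.124 to 0.249 RPKM). They lay within the range of the saline NAc libraries, 0.0343 to 0.768 RPKM. Chrnb1 was at 0.201, 0.309, 0.646, 1.55 and 1.04 RPKM in the VTA. These values overlapped those of the saline PFC libraries (0.111 to 0.410 RPKM) and NAc libraries (0.245 to 0.447 RPKM). Of 10 accessory genes, 5 were higher and 4 lower in the VTA than in the NAc, and 1 was higher and 5 lower than in the PFC. Ache, the esterase that breaks down acetylcholine, was higher in the VTA by 1.21 ± 0.09 than in the NAc and by 1.77 ± 0.10 than in the PFC. Lypd6, a membrane-anchored modulator of nicotinic receptors, was lower in the VTA by the log2 differences -0.79 ± 0.14 and -1.52 ± 0.14. Ric3, a chaperone of receptor assembly, differed by 0.18 ± 0.07 from the NAc, which was called, and by 0.08 ± 0.07 from the PFC, which was not.

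Over the 35 libraries of all regions at 28 days, genes with the pattern most like each member were ranked by Pearson's r of log2 CPM among 14659 genes, as a description. Libraries of a region share that region's cells. For Chrna6 the nearest were Foxa1 (r = 0.997), En1 (0.997) and Lmx1b (0.996), transcription factors of midbrain development. For Chrna3 they were Th (0.992), Klhl1 and Rit2, for Chrnb3 Srpx2 (0.986), Aldh1a7 and Sec23b, and for Chrna4 9630033F20Rik (0.983), Ntsr1 and Mfsd6. For Chrna5, Cntnap4 (0.962) led, for Chrnb2 Lmx1a (0.968), for Chrnb4 Kctd5 (0.925) and for Chrna7 Erbb4 (0.921). Within the 11 VTA libraries at 28 days, Chrna6 was nearest to Th (0.994), Ret (0.994) and Chrnb3 (0.992), and Chrnb3 to Th (0.996), Chrna6 (0.992) and Slc10a4 (0.991). There Slc39a4 (0.969) led for Chrna3, Srpx2 (0.971) for Chrna4 and Cps1 (0.904) for Chrna5. Sphkap (0.966) led for Chrna7, Ppfia2 (0.979) for Chrnb2 and Atp6v1c2 (0.925) for Chrnb4.

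Cocaine was then compared with saline separately for each region and each time. For 1-day VTA and PFC libraries only RPKM was deposited, and limma was applied to log2(RPKM + 0.1) of genes averaging 0.5 RPKM or more. On this scale the changes of low genes come out too small. The other tables hold counts and were tested with edgeR. 0 of the members were called in any of the 6 comparisons at an adjusted p under 0.05.

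In the VTA after 1 day of abstinence, 0 of 8 members were called, where 0.186% of the 15042 genes tested were called, 0.16% higher and 0.0266% lower. 6 members had lower and 2 had higher fitted values after cocaine. The unadjusted p was under 0.05 for 15.4% of all genes and for 1 of the 8 members, a count not above that share. This member was Chrna4. Its saline libraries held 51.8, 58.9 and 67.6 RPKM (lowest, median, highest) and its cocaine libraries 28.2, 38.0 and 50.4 RPKM. All 6 cocaine libraries lay below all 6 saline libraries, as they did for 0.366% of the genes tested, while 1.3% had all cocaine libraries above. The means were 59.4 ± 6.61 and 38.9 ± 7.46 RPKM (SD, n = 6), a log2 fold change of -0.63 ± 0.13 (SE) with an adjusted p of 0.087 by limma (0.000295 before adjustment). The two-sided exact permutation test over the 924 divisions of the libraries gave p = 0.00216, the smallest it can give, and 0.104 after Benjamini-Hochberg adjustment over the 48 tests of single members. edgeR on the whole reads recovered from RPKM called Chrna4 (-0.66, adjusted p = 0.0483), as 1 of 55 genes (0.341%), and leaving out cocaine library 1, the highest of its group, gave -0.71 with an adjusted p of 0.0359 by limma. Without any other library it was not called, and the fold changes ranged from -0.71 to -0.54.

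**Figure D3:**
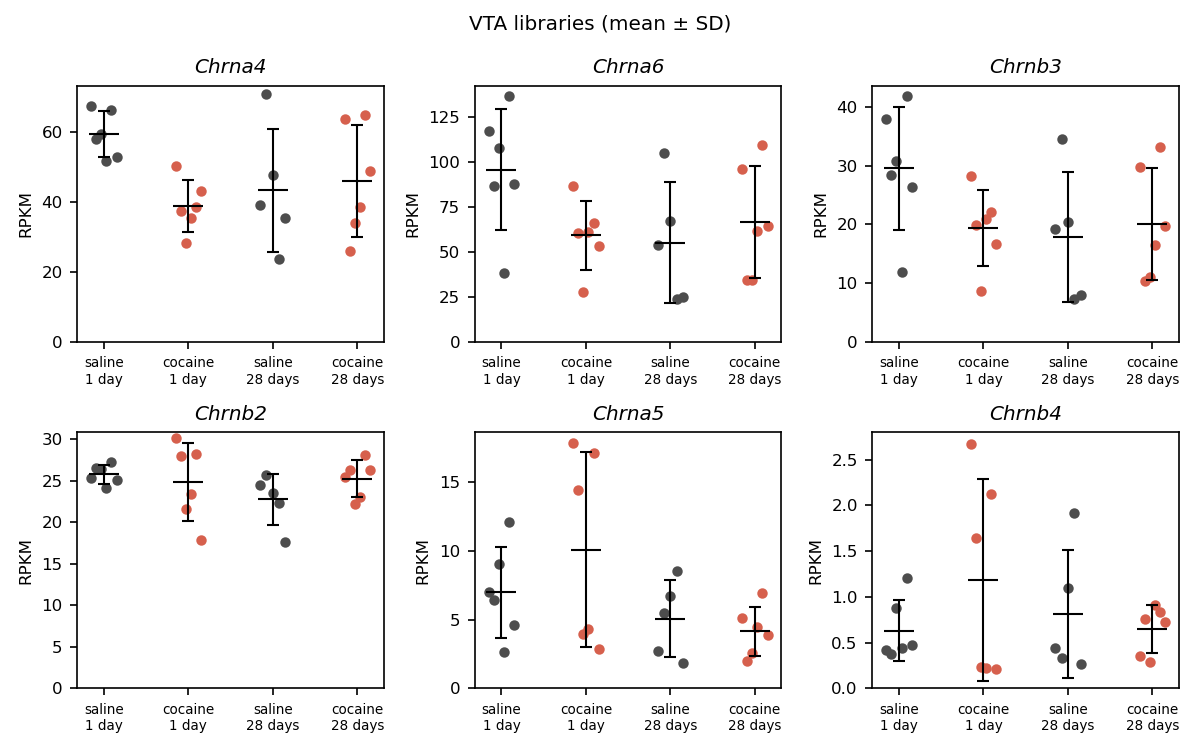
RPKM of 6 subunit genes in the VTA, with 1 point per library and bars for mean ± SD, for saline and cocaine at 1 day and at 28 days (1-day RPKM as deposited, 28-day RPKM computed from counts). For Chrna4 at 1 day the cocaine points lie between 28.2 and 50.4 and the saline points between 51.8 and 67.6, whereas the groups overlap in the other panels and for Chrna4 at 28 days.

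Chrna6 and Chrnb3 had fold changes of similar size with a wider spread. Chrna6 ranged over 38.5, 97.7 and 136 RPKM (lowest, median, highest) after saline and 27.7, 60.7 and 86.8 RPKM after cocaine, and the groups overlapped. The log2 fold change was -0.67 ± 0.32 with an adjusted p of 0.334 by limma. Chrnb3 ranged over 12.0, 29.6 and 41.9 RPKM after saline and 8.73, 20.4 and 28.3 RPKM after cocaine, also overlapping, with a log2 fold change of -0.59 ± 0.32 (adjusted p = 0.408 by limma). The corresponding values of Chrna3 were -0.50 ± 0.31 (adjusted p = 0.463) and those of Chrna7 -0.26 ± 0.21 (adjusted p = 0.603). Chrnb2 differed by -0.07 ± 0.12 (adjusted p = 0.824), Chrna5 by 0.30 ± 0.52 (adjusted p = 0.844) and Chrnb4 by 0.31 ± 0.61 (adjusted p = 0.868).

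The same libraries differed in markers of cell types. Of the 10 dopamine neuron genes 9 were tested, all 9 had negative fold changes, 6 of them with an unadjusted p under 0.05 and 0 called, and their median was -0.58 against 0.03 over all genes. Their summed RPKM was 668 to 1580 after cocaine and 1108 to 2546 after saline. Of the rows for genes of cortical excitatory neurons 5 of 9 were tested and all 5 were positive (median 1.05, 0 called), with summed RPKM of 24.4 to 105 after cocaine and 12.0 to 46.9 after saline. All 8 microglia genes were negative (median -0.50), 7 with an unadjusted p under 0.05 and 1 called lower, with summed RPKM of 123 to 171 after cocaine and 181 to 242 after saline. With the dopamine neuron list as a covariate, an alternative added after seeing the data, the log2 fold change of Chrna4 was -0.38 ± 0.10 (adjusted p = 0.152 by limma, 0.00304 before adjustment). In that fit those of Chrna6, Chrnb3 and Chrna3 were 0.12 ± 0.09, 0.21 ± 0.11 and 0.18 ± 0.19. With the cortical list as the covariate Chrna4 was at -0.50 ± 0.17 (adjusted p = 0.531 by limma). The part of the microglia list in these values was not tested.

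**Figure D4:**
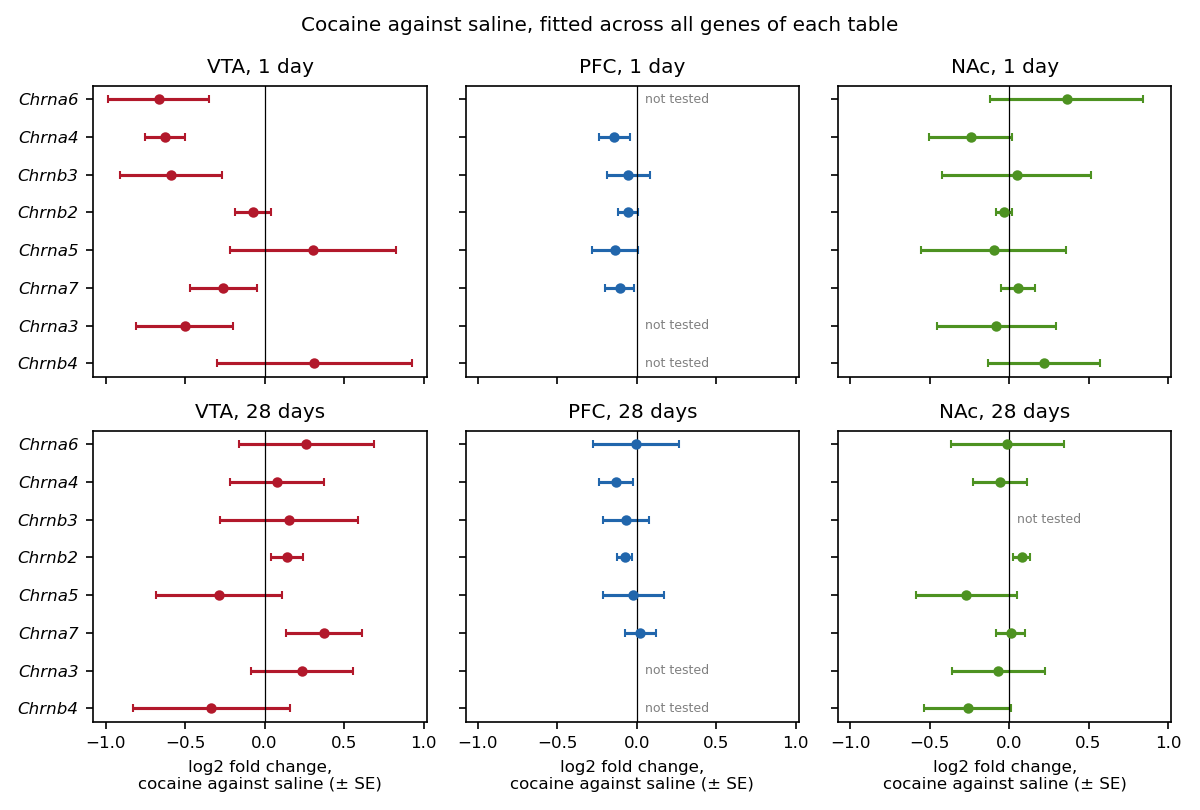
Fitted log2 fold change of cocaine against saline, with SE as bars, for each subunit gene in each region and time point (limma for the VTA and PFC at 1 day, edgeR for the rest). 0 members passed the adjusted threshold, and in the VTA at 1 day Chrna4 was at -0.63, Chrna6 at -0.67 and Chrnb3 at -0.59.

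In the VTA after 28 days of abstinence, 0 of 8 members were called, as were 0.0% of 16937 genes tested (11.5% had an unadjusted p under 0.05, 0 of the members among them, and DESeq2 called 73 genes and 0 members). Chrna4 had 39.3, 70.9, 47.6, 23.8 and 35.4 RPKM after saline and 26.1, 43.8 and 65.0 RPKM (lowest, median, highest) after cocaine. The groups overlapped over most of their range. Its log2 fold change was 0.08 ± 0.30 (adjusted p = 0.922 by edgeR), and the sign turned when cocaine library 1 or 5 or saline library 4 was left out. Chrna6 was at 0.26 ± 0.43, Chrnb3 at 0.16 ± 0.43, Chrna3 at 0.24 ± 0.32, Chrnb2 at 0.14 ± 0.10 and Chrna7 at 0.37 ± 0.24. Chrna5 and Chrnb4 had negative values, -0.29 ± 0.40 and -0.33 ± 0.49. The adjusted p-values of the 8 members were between 0.520 and 0.922. Here 9 of 10 dopamine neuron genes had positive fold changes (median 0.13, 0 with an unadjusted p under 0.05). All 8 microglia genes (median -0.34, 2 with an unadjusted p under 0.05) and all 8 oligodendrocyte genes (median -0.41, 3 under 0.05) were negative, as were 5 of 7 tested genes of cortical excitatory neurons (median -0.62, 4 under 0.05). 0 genes of these lists were called. The part of the microglia and oligodendrocyte lists in the members' values was not tested.

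The change of the cocaine effect between the times was tested in 1 edgeR fit per region, on counts and, for the 1-day tables deposited as RPKM, on the reads recovered from them (the VTA and PFC fits were added after seeing the data). For Chrna4 in the VTA it was -0.73 ± 0.33 on the log2 scale, 1 day against 28 days (adjusted p = 0.281 by edgeR, 0.0344 before adjustment), and for Chrna6 it was -0.99 ± 0.53 (adjusted p = 0.378). 0 of 8 members were called, as were 0.0% of the 17197 genes (15.6% by unadjusted p under 0.05). In the NAc 0 of 8 and in the PFC 0 of 6 tested members were called, where 0.0181% and 0.00604% of all genes were, and 0 had an unadjusted p under 0.05, where 5.27% and 4.85% of all genes did.

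Levels spread widely between VTA libraries of the same group, and the members did so in different ways. Each member's log2 level was set against the mean log2 level of the 10 dopamine neuron genes, separately at 1 day (12 libraries) and at 28 days (11). Pearson's r for Chrna6 was 0.98 and 0.99 (Spearman's rho 0.93 and 0.97), and for Chrnb3 0.97 and 1.00 (rho 0.94 and 0.99). For Chrna4 r was 0.86 and 0.95 (rho 0.84 and 0.97) and for Chrna3 0.89 and 0.93 (rho 0.80 and 0.94). Permutation p-values for r of these 4 genes, adjusted over the 32 relations computed, were at most 0.00096, and for rho at most 0.00721. Without the 2 libraries farthest from the median of the list, r at 1 and 28 days was 0.96 and 0.99 for Chrna6, 0.93 and 0.99 for Chrnb3, 0.72 and 0.97 for Chrna4, and 0.74 and 0.95 for Chrna3. Within the cocaine libraries r was 0.96 and 0.99 for Chrna6 and 0.90 and 0.98 for Chrna4, and within the 1-day saline libraries 1.00 and 0.82. The 5 saline libraries at 28 days were too few for a value of their own.

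The remaining members had lower coefficients over all libraries of a time. Chrna5 had r = 0.39 and 0.42 (adjusted permutation p = 0.289 at both times), Chrna7 0.35 and 0.59 (adjusted permutation p = 0.327 and 0.0896) and Chrnb4 0.26 and -0.20 (adjusted permutation p = 0.502 and 0.591). The rho of these genes was 0.34 and 0.39, 0.48 and 0.86, and 0.12 and -0.11, of which that of Chrna7 at 28 days passed (adjusted permutation p = 0.00416). For Chrnb2 r was 0.40 and 0.66 (rho 0.27 and 0.69), with adjusted permutation p-values of 0.289 and 0.0422 for r. Without the 2 farthest libraries r for Chrnb2 at 28 days was 0.49, and for Chrna5 at 28 days it was 0.84. Within single groups some were higher. In the 1-day saline libraries r was 0.95 for Chrna5, 0.82 for Chrnb2, 0.53 for Chrna7 and 0.55 for Chrnb4, and in the 1-day cocaine libraries 0.40, 0.35, 0.07 and 0.45. In the 28-day cocaine libraries it was 0.95, 0.53, 0.85 and 0.13.

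**Figure D5:**
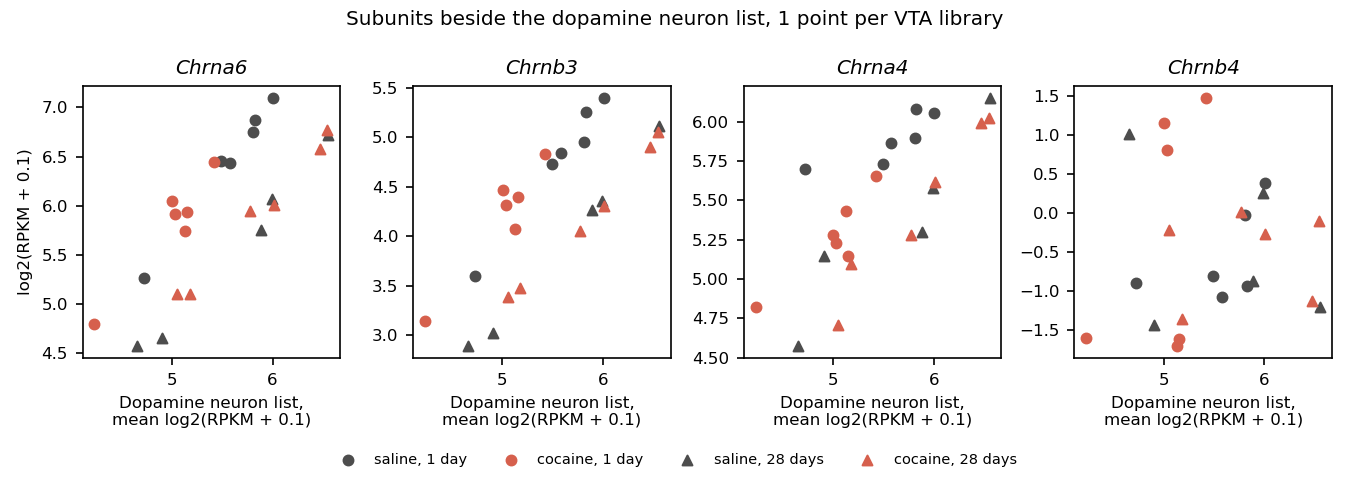
log2(RPKM + 0.1) of 4 subunit genes against the mean log2(RPKM + 0.1) of the dopamine neuron list, with 1 point per VTA library, grey for saline and red for cocaine, circles for 1 day and triangles for 28 days (1-day RPKM as deposited, 28-day RPKM computed from counts). Chrna6, Chrnb3 and Chrna4 climb with the list within each time (r from 0.86 to 1.00), and Chrnb4 does not (0.26 and -0.20).

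The ratio of Chrna6 to Chrnb3 was nearly constant. It was 3.24 ± 0.167 after saline and 3.07 ± 0.106 after cocaine at 1 day (SD, n = 6). At 28 days it was 3.11 ± 0.189 after saline (SD, n = 5) and 3.32 ± 0.207 after cocaine (SD, n = 6). Within a group Chrna6 spanned a 3.14-fold to 4.42-fold range while the ratio spanned 1.10-fold to 1.19-fold. The ratio of Chrna4 to Chrnb2 was 1.60 ± 0.422 after cocaine and 2.30 ± 0.215 after saline at 1 day (SD, n = 6, two-sided exact permutation p = 0.0108, adjusted 0.152 over 14 ratio tests). The ratio of Chrna4 to Slc6a3, a gene of the dopamine neuron list, went the other way at 1 day. It was 0.143 ± 0.0333 after cocaine and 0.124 ± 0.0318 after saline (SD, n = 6), and the groups overlapped. None of the 14 ratio tests passed after adjustment.

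Chrnb4 and Chrna5 were high in the same VTA libraries of the 1-day cocaine group. Chrnb4 was at 2.67, 1.64 and 2.13 RPKM in libraries 1, 2 and 5 and at 0.230, 0.227 and 0.208 RPKM in libraries 3, 4 and 6. Chrna5 split the same libraries, with 17.8, 14.4 and 17.1 RPKM against 3.93, 4.33 and 2.86 RPKM. Chrna2, a further alpha subunit chosen here after its values were seen, was at 18.7, 15.9 and 17.7 RPKM in the first 3 and at 4.28, 2.79 and 0.125 RPKM in the others. In the saline group at 1 day the highest Chrnb4 (1.21 RPKM), Chrna5 (12.1) and Chrna2 (7.41) were found in library 5, which also had the highest Chrna6 (136 RPKM), Chrnb3 (41.9) and Chrna3 (8.41) of its group. At 28 days they were found in saline library 4, with 1.92, 8.57 and 11.6 RPKM, the library with the lowest Chrna6 (23.8 RPKM) and Chrna4 (23.8 RPKM) of its group. Without that library the fold change of Chrnb4 at 28 days was 0.25. Over all libraries of a time, r between Chrna5 and Chrnb4 was 0.92 at 1 day and 0.60 at 28 days, given as a description. At 1 day Chrnb2 went with both (0.83 with Chrna5 and 0.82 with Chrnb4), and at 28 days Chrna5 had similar values with Chrna7 (0.62) and Chrna3 (0.60). Of 7 genes listed for the habenula and interpeduncular nucleus 5 were tested at 1 day in the VTA and 0 were called. 1 of the 5, Tac2, had an unadjusted p under 0.05 (log2 fold change 2.76 ± 1.11, adjusted p = 0.279 by limma), and the median of the 5 was -0.0026. The part of this list in the Chrnb4 values was not tested.

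In the NAc, where the summed level was lowest, 0 of 8 members were called at 1 day (0.0126% of all genes) and 0 of 7 at 28 days (0.0%). An unadjusted p under 0.05 was found for 4.01% and 6.76% of all genes at these times, with 0 members among them. DESeq2 called 20 and 18 genes and 0 members. Chrnb3, at 1 to 2 reads in its lowest libraries of that time, was too low to be tested. Chrna4 was at 4.85 ± 1.88 RPKM after cocaine and 5.82 ± 1.91 after saline at 1 day (SD, n = 6), and at 4.79 ± 1.50 and 4.97 ± 1.01 RPKM at 28 days (SD, n = 6). The log2 fold changes were -0.24 ± 0.26 and -0.06 ± 0.17. Those of the other members were between -0.10 and 0.36 at 1 day (adjusted p of all 8 at 1.00 by edgeR) and between -0.27 and 0.08 at 28 days. Chrnb2 was the most even, with an SE of 0.05 at both times.

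Chrna4 in the NAc followed the cortical excitatory neuron list, whose summed RPKM ranged from 61.6 to 335 in NAc libraries. Pearson's r was 0.89 at 1 day and 0.91 at 28 days over 12 libraries each (rho 0.83 and 0.92, adjusted permutation p at most 0.00416 for both measures). Without the 2 farthest libraries it was 0.95 and 0.91, and within the treatment groups it lay between 0.92 and 0.93. For Chrnb3 r was 0.85 and 0.60 and for Chrna3 -0.89 and -0.24, and both passed at 1 day (adjusted permutation p = 0.00155 and 0.0006) but not at 28 days (0.0759 and 0.521). Chrna6 (r = 0.74, adjusted permutation p = 0.0193) and Chrna5 (r = 0.71, adjusted permutation p = 0.0197) also passed at 1 day and not at 28 days (0.23 and 0.39, adjusted permutation p = 0.531 and 0.289). Without the 2 farthest libraries r at 1 day was 0.46 for Chrna6 and 0.75 for Chrna5. For Chrna7 at 1 day rho passed (0.71, adjusted permutation p = 0.0249) and r did not (0.60, adjusted permutation p = 0.0773). Neither passed for Chrna7 at 28 days, nor for Chrnb2 and Chrnb4 at either time. PFC libraries, where this list summed to 554 to 847 RPKM, had a higher Chrna4, Chrnb3 and Chrna5 and a lower Chrna3 and Chrnb4 than NAc libraries. Chrna6 and Chrna7 were not called between these regions. Whether cortical tissue had a part in the NAc values was not tested.

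In the PFC, 0 of 5 tested members were called at 1 day (0.00693% of all genes) and 0 of 6 at 28 days (0.0%). An unadjusted p under 0.05 was found for 4.15% and 5.66% of all genes at these times, with 0 members among them. At 28 days DESeq2 called 2 genes and 0 members. Chrna4 was at 12.3 ± 1.33 RPKM after cocaine and 13.6 ± 1.83 after saline at 1 day, and at 12.8 ± 1.11 and 14.1 ± 2.90 at 28 days (SD, n = 6). Its log2 fold changes were -0.14 ± 0.10 and -0.13 ± 0.11, and the latter was -0.20 ± 0.10 without saline library 4 (adjusted p = 0.967 by edgeR). Those of the other tested members lay between -0.14 and -0.06 at 1 day and between -0.08 and 0.02 at 28 days. Without saline library 4 the 28-day values were -0.17 for Chrna5, -0.12 for Chrnb3, -0.07 for Chrnb2, -0.03 for Chrna7, where the sign turned, and -0.01 for Chrna6. Chrna3 and Chrnb4 at both times and Chrna6 at 1 day were too low to be tested. Chrnb4 had 0 reads in 4 of 6 cocaine libraries at 28 days, where 3 reads would amount to between 0.0182 and 0.0286 RPKM.

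Single members were also compared by the exact permutation test in each region and time, 48 tests in all, and 1 had a p under 0.05, that of Chrna4 in the VTA at 1 day. Of the 10 accessory genes of the receptors 0 were called in any of the 6 cocaine comparisons. Of the 8 further subunits, between 0 and 3 could be tested per comparison and 0 were called. Chrnd had 0 reads in all saline libraries at 28 days.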

How the data were processed

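RNA from micro-punches was sequenced, and per the submitters' processing notes the reads were aligned with STAR 2.4.1d to mm9. The authors deposited 6 tables, 1 per region and time. The counts deposited for the NAc at both times and for VTA and PFC after 28 days are raw and not normalized. The 1-day VTA and PFC values are RPKM, which the authors scaled for length and library depth. From these steps whole reads were recovered for 100.0% and 99.991% of genes with reads. Where only counts were deposited, RPKM was computed from the gene lengths that the RPKM tables imply. Further columns of the tables hold the authors' own fold changes and p-values and were not used, nor were 30 columns of libraries of no sample analysed here. Libraries were grouped by labels. The 28-day column names give the group only, so those library numbers are names.

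Counts were tested with edgeR 4.0.16 in R 4.3.3 (filterByExpr, TMM, quasi-likelihood), RPKM with limma 3.58.1, and alternatives with DESeq2 1.42.0. p-values were adjusted over all genes of a table. Exact and 100000-fold permutation tests were run in Python 3.11.15 with numpy 2.4.6. Correlation coefficients and the adjustment of permutation p-values used scipy 1.17.1. The edgeR and limma tests and the recovery of whole reads were tested on simulated data. The members, the lists and the tests were chosen with earlier results of these data known. Named were the 8 members, list genes past the test or described as markers, and up to 3 of the genes most correlated with each member. These came from genes with a mean of at least 1 CPM. No pair of libraries of a group agreed within sampling noise. Alternatives were DESeq2, its size factors, testing without the low-value filter, log2(RPKM + 1), an adjusted p under 0.25, edgeR on recovered reads, a replicate block, other libraries for the regions, and leaving out each library. Marker lists as covariates, the block on recovered reads, and the change over time in the VTA and PFC were added after seeing the data. A result for a single gene of the microglia list is not reported here.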

Additional observations from a re-analysis of the deposited data

Results flagged for a closer look

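In 9 of 96 groups of libraries (9.38%), 1 library lay farther from the rest than Dixon's critical value allows, where chance alone flags about 5% of groups, or 1 in 20. In the NAc these were the highest Chrnb2 of the 1-day cocaine group (18.0 RPKM, the next at 15.8), the highest Chrna4 of the 28-day cocaine group (7.60, the next at 4.98) and the highest Chrnb3 of the 28-day saline group (0.123, the next at 0.0475). In the PFC the highest Chrna4 stood apart in the cocaine groups at 1 day (14.8 RPKM, the next at 12.2) and at 28 days (14.9, the next at 12.8). In the 28-day saline group of the PFC the highest Chrna3 (0.201 RPKM, the next at 0.0767), Chrna6 (0.302, the next at 0.162) and Chrnb2 (16.2, the next at 14.5) were found in 3 different libraries. The lowest Chrnb2 of the 28-day cocaine group of the PFC was at 12.8 RPKM, the next at 13.6. No group of the VTA was among them.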

How the results depend on the processing

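The count of members called stayed at 0 in every cocaine comparison under the alternatives tried, except in the VTA at 1 day, where it was 1 (Chrna4) with edgeR on recovered reads, 1 at an adjusted p under 0.25 and 1 with edgeR on recovered reads and the replicate block, and between 0 and 1 when single libraries were left out (1 without cocaine library 1). No direction of Chrna4 in the VTA at 1 day turned. Counts over all genes moved more. In that comparison 28 genes were called in the fit reported, 2 without a filter on low values, 55 on recovered reads, 1269 at an adjusted p under 0.25, 0 with either marker list as a covariate, and 0 to 54 with 1 library left out. DESeq2 called 20 genes in place of 2 in the NAc at 1 day, 18 in place of 0 at 28 days, 73 in place of 0 in the VTA at 28 days, 2 in place of 0 in the PFC at 28 days, and 12 in place of 3 for the change over time in the NAc. An adjusted p under 0.25 gave 4 genes in place of 1 in the PFC at 1 day, and the cortical covariate 4 in place of 2 in the NAc at 1 day.

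Same-numbered cocaine and saline libraries at 1 day had correlations of -0.62 to 0.75 in the NAc, -0.33 to 0.53 in the VTA and -0.22 to 0.16 in the PFC (6 pairs each), so the numbers are not taken to pair the libraries. A cocaine library correlated best with its own number in 1, 2 and 0 of 6 cases. In the same order of regions the median r was 0.20, 0.13 and -0.11, and 4, 4 and 1 of 6 pairs had r over 0.1. With the replicate block 13 genes were called in the VTA at 1 day, or 98 on recovered reads, 2 in the NAc and 1 in the PFC, and 0 members were called in limma or edgeR except Chrna4 on recovered reads (-0.67, adjusted p = 0.0268).

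Log2 fold changes of uncalled members turned sign in some fits, and the cause was not tested. In the VTA at 1 day the dopamine neuron covariate gave 0.0268 for Chrnb2, 0.12 for Chrna6, 0.21 for Chrnb3 and 0.18 for Chrna3, and the cortical covariate gave 0.0691 for Chrnb2 and 0.14 for Chrna7. In the VTA at 28 days the dopamine neuron covariate gave -0.0930 for Chrna4 and -0.0231 for Chrnb3. The cortical covariate there gave -0.38 for Chrna4, -0.0268 for Chrnb2, -0.54 for Chrna6, -0.70 for Chrnb3, -0.27 for Chrna3, 0.43 for Chrnb4 and 0.0654 for Chrna5, and in the NAc at 28 days 0.13 for Chrna4. Leaving out single libraries gave ranges of -0.13 to 0.0171 for Chrnb2 and -0.0298 to 0.60 for Chrnb4 in the VTA at 1 day, -0.0749 to 0.34 for Chrna4, -0.0468 to 0.56 for Chrnb3 and -0.55 to 0.25 for Chrnb4 in the VTA at 28 days, and -0.24 to 0.0200 for Chrna4 in the NAc at 28 days. In the NAc at 1 day such ranges were -0.26 to 0.42 for Chrnb3, -0.39 to 0.10 for Chrna3 and -0.34 to 0.12 for Chrna5. In the NAc at 28 days they were -0.14 to 0.24 for Chrna6, -0.35 to 0.0369 for Chrna3 and -0.0339 to 0.0541 for Chrna7. In the PFC at 28 days they were -0.13 to 0.25 for Chrna6, -0.13 to 0.0289 for Chrnb3 and -0.17 to 0.0948 for Chrna5. There Chrna7 ranged from -0.0340 to 0.0795. Chrnb2 between PFC and NAc was -0.0862 in cocaine libraries at 28 days and -0.14 in saline libraries at 1 day. All covariate fits were added after seeing the data. Members under about 0.1 RPKM rest on a few reads per library, which sets their precision.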
